A study of Homo sapiens with 10 samples.

Results

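The miR-26 family was followed in small RNA libraries of ES-2, a cell line derived from a human ovarian cancer. It was taken by name as hsa-miR-26a-5p, hsa-miR-26b-5p and hsa-miR-26b-3p, which are 3 of the 2576 mature miRNAs in the deposited table and 4 of its 2794 rows, because miR-26a-5p has a row for each of its 2 genomic copies. The groups were cells given a pool of siRNAs against IGF2BP1 (siIGF2BP1, 2 libraries), against IGF2BP2 (siIGF2BP2, 3 libraries) or against IGF2BP3 (siIGF2BP3, 3 libraries), and cells given control siRNAs (siC, 2 libraries). All 10 libraries come from this 1 cell line, and the labels state neither the dose nor the time of transfection. Since the table lists mature miRNAs and 0 IGF2BP transcripts, the extent of each knockdown is unknown here.

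A miRNA is cut from a hairpin precursor, 1 arm of which is usually kept as the guide that directs Argonaute to mRNAs, while the other arm, the passenger, is mostly degraded. Pairing of the guide's seed, bases 2 to 8, with an mRNA sets most of its targets. The miR-26 hairpins lie in introns of the CTDSP genes, which encode phosphatases that dephosphorylate the C-terminal domain of RNA polymerase II and the retinoblastoma protein. The family is known in human tumours for repressing EZH2, the histone methyltransferase of Polycomb repressive complex 2, and cell cycle genes, and for being repressed by MYC. The IGF2BP proteins are paralogous RNA-binding proteins that stabilise bound mRNAs, and the series title concerns how IGF2BP1 affects repression by miRNAs. The comparisons here ask whether the miR-26 miRNAs themselves differed in level after each knockdown.

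The mature sequences are shown because the members differ by few bases, which decides which reads can be told apart. They come from RefSeq (GRCh38.p14) and read 5′ to 3′, with the seed in capitals. All 3 members and 4 relatives had an entry there.
hsa-miR-26a-5p: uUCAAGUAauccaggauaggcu
hsa-miR-26b-5p: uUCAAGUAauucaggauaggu
hsa-miR-26b-3p: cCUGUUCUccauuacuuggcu
hsa-miR-26a-1-3p: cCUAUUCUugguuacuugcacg
hsa-miR-26a-2-3p: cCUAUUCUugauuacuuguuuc
hsa-miR-1297: uUCAAGUAauucaggug
hsa-miR-4465: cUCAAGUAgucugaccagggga

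Counted from 1 at the 5′ end, miR-26b-5p differs from miR-26a-5p at 2 of 21 compared positions (C11U and C21U), both outside the seed. Their first 10 bases are identical, and miR-26a-5p is 22 bases long against 21 for miR-26b-5p. Among 2370 human mature miRNA names in the RefSeq table, 3 others share the seed of miR-26a-5p, namely miR-26b-5p, miR-1297 and miR-4465. The seed of miR-26b-3p is shared by 0 other names. The passenger arms miR-26a-1-3p and miR-26a-2-3p share a seed with each other and differ at 5 positions. In the hairpins that follow, the capitals mark the mature arms, 5p first and 3p second.
MIR26B: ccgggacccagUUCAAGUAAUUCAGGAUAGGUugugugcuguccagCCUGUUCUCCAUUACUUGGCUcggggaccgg
MIR26A1: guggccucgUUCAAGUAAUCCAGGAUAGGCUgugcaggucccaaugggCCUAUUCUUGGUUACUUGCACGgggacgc
MIR26A2: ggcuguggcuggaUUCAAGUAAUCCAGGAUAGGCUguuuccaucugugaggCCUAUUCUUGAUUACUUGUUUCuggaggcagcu

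In GRCh38.p14, MIR26B lies at chr2:218402646-218402722 on the plus strand, within CTDSP1. MIR26A1 lies at chr3:37969404-37969480 on the plus strand, within CTDSPL, and MIR26A2 at chr12:57824609-57824692 on the minus strand, within CTDSP2. Each is on the strand of its host, and in GENCODE release 29 the hairpin fell in an exon of 0 of the 11, 5 and 6 host transcripts that span these sites, in the same order. The deposited table itself holds no coordinates.

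Facts of the whole series touch these values in 4 ways. Recovered totals were 1269743 and 1096008 reads in siIGF2BP1, 495530 to 697080 in siIGF2BP2, 462724 to 815312 in siIGF2BP3, and 553288 and 733608 in siC, so the siIGF2BP1 libraries were the deepest. The labels give siIGF2BP2 and siIGF2BP3 a source name that siIGF2BP1 and siC lack, and the first principal component over 313 miRNAs (77.1% of the variance) separated these blocks. For siIGF2BP2 or siIGF2BP3 against siC or siIGF2BP1, a block difference and a knockdown difference cannot be told apart. The siC libraries also serve in 3 comparisons, whose fold changes are therefore not independent. Of 7 blood cell markers, 2 to 4 had a read in each siIGF2BP2 or siIGF2BP3 library, and 5 to 6 in each siIGF2BP1 or siC library. They took 0.0439% to 0.163% of the reads, with miR-486-5p at 0 in all 10 libraries. Of 5 liver, muscle and neural markers in the deposited table, 1 had a read in each siIGF2BP2 or siIGF2BP3 library. In each siIGF2BP1 or siC library 2 to 3 had. They took 0.0105% to 0.0449% of the reads, with miR-122-5p at 0 in all 10. The epithelial miR-200 family took at most 0.00121% of the reads, with miR-429 at 0 in all 10 libraries, and the mesenchymal markers took 0.331% to 0.517%, with miR-214-3p at 0 in all 10. The mesenchymal miR-145-5p was at 0 in every siIGF2BP2 and siIGF2BP3 library and in siC C2. The part of depth, block and other cells in the results was not tested.

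miR-26a-5p was the main member, with 90506 reads in all libraries (1.22% of all reads) and rank 16 among 2576 miRNAs by mean normalised read count, the authors' scaled count. miR-26b-5p ranked 54 with 9613 reads (0.129%), and miR-26b-3p, the passenger arm of the MIR26B hairpin, ranked 297 with 96 reads (0.00129%). All 3 had reads in all 10 libraries and passed the filter on low values. The same-seed relatives miR-1297 and miR-4465 had 0 reads in every library, which allows up to 2.36 RPM (reads relative to the library total) in the deepest library and 6.48 RPM in the shallowest, from a floor of 3 reads. The seed was thus read from miR-26a-5p and miR-26b-5p alone among these 4 names at this depth.

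Summed over the 3 members, the share of all reads was 1.57% and 1.58% in siIGF2BP1. Their share was 1.28%, 1.31% and 1.30% in siIGF2BP2, 1.13%, 1.27% and 1.11% in siIGF2BP3, and 1.29% and 1.25% in siC. The exact 95% interval of counting error was 1.55% to 1.59% in siIGF2BP1 replicate 1 and 1.26% to 1.32% in siC C2. The siIGF2BP1 libraries lay apart from all others by more than counting error, though only the siC libraries among these share their block. Within siIGF2BP3, replicates 2 (1.25% to 1.30%) and 3 (1.08% to 1.13%) also lay apart by more than counting error. These shares are a description and carry no test, because they sum members chosen together.

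In siIGF2BP1 against siC, miR-26a-5p, the EZH2-repressing main member, was higher in both libraries, while the 2 arms of miR-26b were not separated from siC by more than their error. miR-26a-5p had normalised read counts of 14690 and 14183 in siIGF2BP1, against 10584 and 10851 in siC. Both siIGF2BP1 libraries lay above both siC libraries, with means of 14437 ± 358 and 10718 ± 189 (SD, n = 2 each). The log2 fold change was 0.43 ± 0.11 (SE), with a 95% interval of 0.20 to 0.66. It missed the threshold of 0.05 with an adjusted p of 0.0548 in limma, a linear model fitted across 889 miRNAs. In the authors' deposited table, which tests the 2 copies of miR-26a-5p as separate rows, the log2 fold changes were 0.45 and 0.41, with false discovery rates of 0.140 and 0.275.

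miR-26b-5p, which has the same seed, had 1283 and 1079 in siIGF2BP1, against 1193 and 1304 in siC. These values overlap, and the log2 fold change was -0.08 ± 0.15 (95% interval -0.41 to 0.24, limma adjusted p = 0.904). It was -0.32 under median-of-ratios and -0.31 under upper-quartile rescaling, and 0.041 without siIGF2BP1 replicate 2. miR-26b-3p had 14.5 and 13.2 in siIGF2BP1, from 18 and 15 reads, against 19.8 and 14.6 in siC, from 12 and 11 reads. The siIGF2BP1 values were the lower ones without overlap, by a margin smaller than 1 read of either library, and the log2 fold change was -0.28 ± 0.38 (95% interval -1.11 to 0.55, limma adjusted p = 0.864). Without siC C2 it was -0.08 and without siC C3 -0.49.

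Thus 0 of 3 members passed the limma test in this comparison, where 2.47% of the 889 miRNAs tested did. At an unadjusted p under 0.05 in limma it was 1 member, miR-26a-5p, against 13.7% of all tested. Of the other tools, edgeR's quasi-likelihood test (12.5% of 335 miRNAs called) and DESeq2 (10.4% of 338 with an adjusted p), both on the recovered reads, each called 0. At an unadjusted p under 0.05, edgeR had 0 members and DESeq2 had 1, which was miR-26b-5p and not miR-26a-5p. The log2 fold change of miR-26a-5p was 0.17 in edgeR and 0.20 in DESeq2, less than 0.5 times the 0.43 of limma on the deposited scaling, and that of miR-26b-5p was -0.34 and -0.31, against -0.08. Groups without overlap were found for 1 member above siC and 1 below, where 23.1% of all tested miRNAs lay above and 11.9% below.

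By group mean, miR-26a-5p was highest in siIGF2BP1 (14437), followed by siIGF2BP2 (11304), siC (10718) and siIGF2BP3 (9545), and of the neighbours in this order only siC and siIGF2BP3 overlapped by library. miR-26b-5p was highest in siIGF2BP3 (1398), followed by siC (1248), siIGF2BP1 (1181) and siIGF2BP2 (1134), and every pair of neighbours overlapped. miR-26b-3p was highest in siC (17.2), followed by siIGF2BP1 (13.8), siIGF2BP3 (12.6) and siIGF2BP2 (7.15). Its siIGF2BP1 and siIGF2BP3 libraries overlapped, and its siIGF2BP2 libraries lay below all others. These orders run across both blocks of libraries, so block and knockdown cannot be told apart in them.

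**Figure D1:**
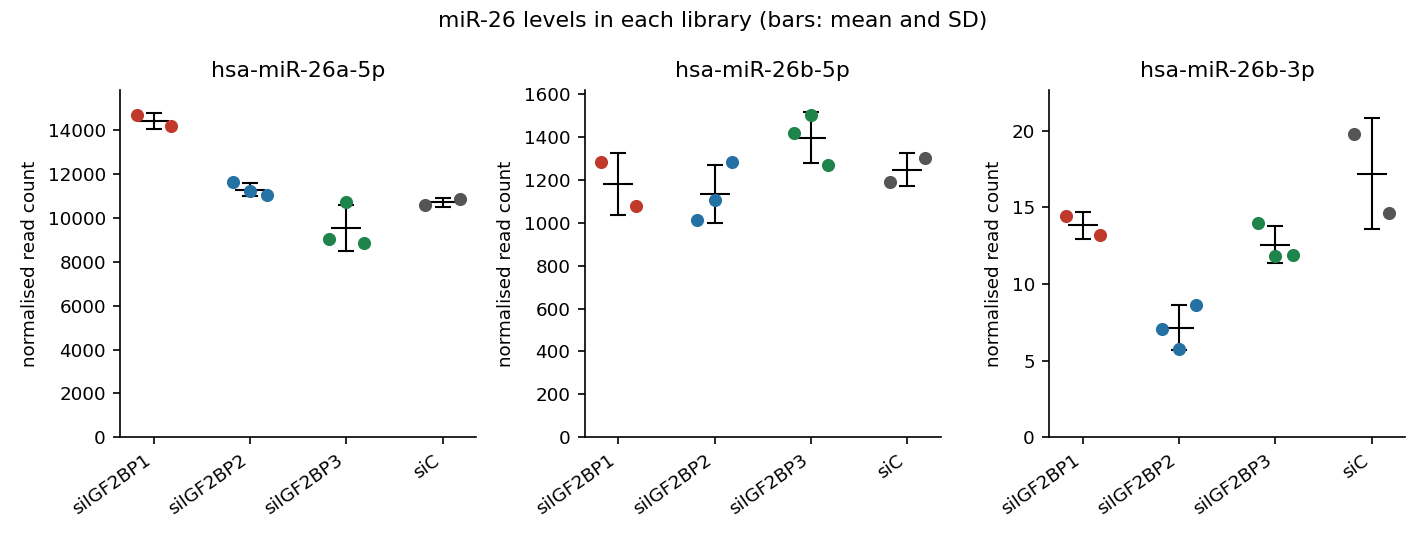
Normalised read counts (y axes, from 0) of miR-26a-5p, miR-26b-5p and miR-26b-3p by group (x axes). Each point is 1 library, and black bars give mean and SD. For miR-26a-5p the siIGF2BP1 libraries, at 14690 and 14183, lie above all 8 others, and for miR-26b-3p the siIGF2BP2 libraries lie lowest, at 5.73 to 8.63.

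In siIGF2BP2 against siC, the passenger arm miR-26b-3p had the largest difference of the 3 members, and the intervals of the guides miR-26a-5p and miR-26b-5p include 0. miR-26b-3p had 7.07, 5.73 and 8.63 in siIGF2BP2, from 5, 3 and 5 reads, against 19.8 and 14.6 in siC. All 3 siIGF2BP2 libraries lay below both siC libraries, at means of 7.15 ± 1.45 (SD, n = 3) and 17.2 ± 3.64 (SD, n = 2). The log2 fold change was -1.16 ± 0.35 (95% interval -1.92 to -0.40), with a limma adjusted p of 0.0577. In the authors' deposited table its log2 fold change was -1.22 with a false discovery rate of 0.734.

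miR-26a-5p had 11638, 11236 and 11037 in siIGF2BP2, all slightly above the siC values of 10584 and 10851. Its log2 fold change was 0.08 ± 0.10 (95% interval -0.14 to 0.29, limma adjusted p = 0.777). miR-26b-5p had 1014, 1105 and 1283 in siIGF2BP2, which overlap the siC values of 1193 and 1304, at a log2 fold change of -0.14 ± 0.14 (95% interval -0.44 to 0.15, limma adjusted p = 0.683).

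The limma test called 0 of 3 members here, against 9.00% of all tested. An unadjusted limma p under 0.05 was found for 1, miR-26b-3p (17.9% of all tested). At that unadjusted level edgeR had 1, miR-26b-3p, and DESeq2 had 0. On the recovered reads, edgeR called 1, miR-26b-3p (adjusted p = 0.0496, log2 fold change -1.30, lower in 3 of 3 siIGF2BP2 libraries), where 15.5% of 335 miRNAs were called, and DESeq2 called 0, where it called 10.5% of 570. The lack of overlap, with 1 member above siC and 1 below, compares with 10.7% above and 16.1% below among all tested. The counts behind miR-26b-3p limit its precision: 3 reads in siIGF2BP2 replicate 2 give an exact 95% interval of 1.25 to 17.7 RPM, which overlaps the 11.2 to 37.9 of siC C2.

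In siIGF2BP3 against siC, the guide arms had fold changes of opposite sign. The passenger arm lay below the same siC libraries that served for siIGF2BP2. The limma 95% interval of each member includes 0. miR-26a-5p had 9028, 10750 and 8855 in siIGF2BP3, against 10584 and 10851 in siC. Replicate 2 lay between the siC libraries and the others below them, and the log2 fold change was -0.17 ± 0.10 (95% interval -0.39 to 0.04, limma adjusted p = 0.374). miR-26b-5p had 1421, 1505 and 1268 in siIGF2BP3, against 1193 and 1304 in siC, at a log2 fold change of 0.16 ± 0.14 (95% interval -0.13 to 0.46, limma adjusted p = 0.594). Replicate 3 lay between the siC libraries and the others above them.

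miR-26b-3p had 13.97, 11.8 and 11.9 in siIGF2BP3, from 7, 10 and 10 reads, against 19.8 and 14.6 in siC. The siIGF2BP3 libraries lay below both siC libraries, at a log2 fold change of -0.41 ± 0.35 (95% interval -1.17 to 0.34, limma adjusted p = 0.594). It was -0.21 without siC C2, -0.62 without siC C3 and -0.06 under upper-quartile rescaling. Of the 3 members, 0 passed the limma test, where 10.6% of all tested did, and 0 had an unadjusted limma p under 0.05 (20.8% of all tested). At that unadjusted level edgeR and DESeq2 each had 1, miR-26a-5p. On the recovered reads edgeR called 0 (19.1% of 335 called), and DESeq2 called 1, miR-26a-5p (adjusted p = 0.0488, log2 fold change -0.28, where 12.6% of 547 were called). Groups without overlap numbered 0 above and 1 below siC, against 11.2% and 18.1% of all tested.

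The comparison of siIGF2BP2 with siIGF2BP3 lies within 1 block of libraries and has the most libraries. The 11638, 11236 and 11037 of miR-26a-5p in siIGF2BP2 all lay above the 9028, 10750 and 8855 of siIGF2BP3, with means of 11304 ± 306 and 9545 ± 1048 (SD, n = 3 each). The log2 fold change was 0.25 ± 0.09 (95% interval 0.06 to 0.44, limma adjusted p = 0.178). miR-26b-5p went the other way, with means of 1134 ± 137 in siIGF2BP2 and 1398 ± 120 in siIGF2BP3 (SD, n = 3 each), and the highest siIGF2BP2 library, at 1283, overlapped the lowest siIGF2BP3 library, at 1268. Its log2 fold change was -0.30 ± 0.12 (95% interval -0.57 to -0.04, limma adjusted p = 0.261).

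miR-26b-3p had means of 7.15 ± 1.45 in siIGF2BP2 and 12.6 ± 1.22 in siIGF2BP3 (SD, n = 3 each) without overlap, at a log2 fold change of -0.75 ± 0.31 (95% interval -1.43 to -0.07, limma adjusted p = 0.286). All 3 members had an unadjusted limma p under 0.05 here, where 13.8% of all tested did. After adjustment over 889 miRNAs 0 passed, where 3.15% did. At an unadjusted p under 0.05, edgeR had 1 member, miR-26a-5p, and DESeq2 had 2, miR-26a-5p and miR-26b-5p. The 2 miR-26b arms come from 1 hairpin, so the 3 members are not independent. On the recovered reads, edgeR (11.9% of 335 called) and DESeq2 (14.4% of 292) each called 1 member, miR-26a-5p, with log2 fold changes of 0.29 and 0.28 and adjusted p of 0.0458 and 0.0159. The groups without overlap were 1 member above and 1 below, against 7.31% and 7.99% of all tested.

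**Figure D2:**
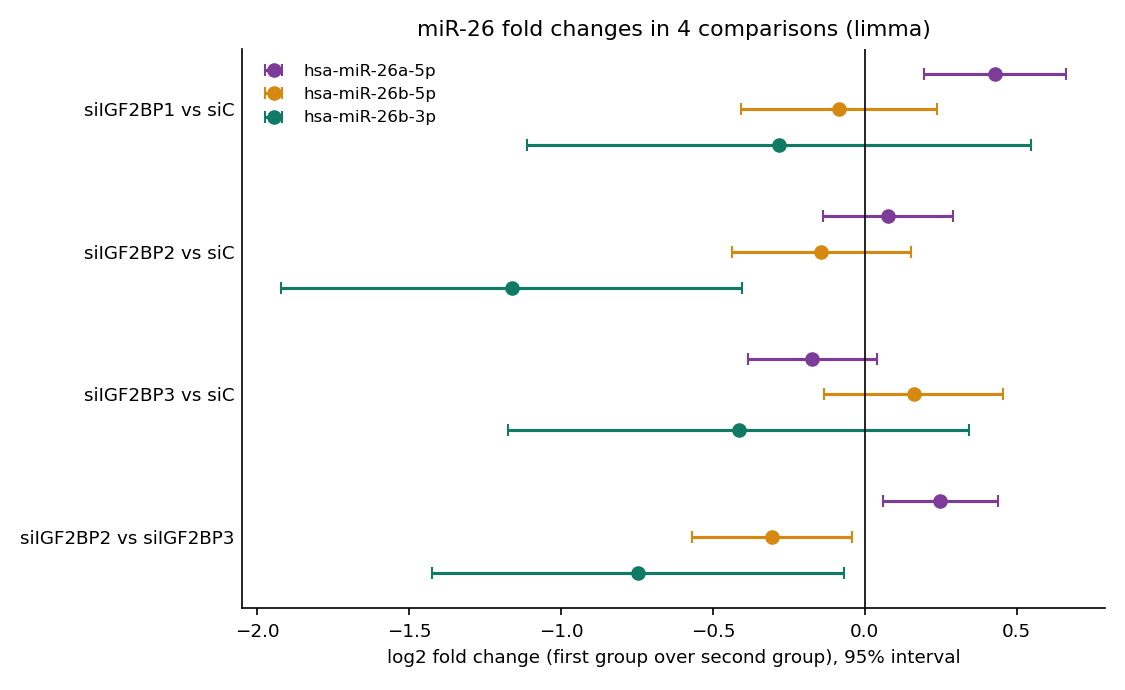
Log2 fold changes (x axis, first group over second) of the 3 members in the 4 comparisons (y axis), from limma on log2(normalised read count + 1). Points are estimates and bars 95% intervals. The interval of miR-26a-5p lies above 0 in siIGF2BP1 vs siC (0.20 to 0.66) and in siIGF2BP2 vs siIGF2BP3 (0.06 to 0.44), that of miR-26b-3p lies below 0 in siIGF2BP2 vs siC (-1.92 to -0.40) and in siIGF2BP2 vs siIGF2BP3 (-1.43 to -0.07), and that of miR-26b-5p lies below 0 in siIGF2BP2 vs siIGF2BP3 (-0.57 to -0.04).

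The ratio of the 2 guide arms was taken within each library, where any scaling factor cancels. Library by library, siIGF2BP1 held 11.5 and 13.1 reads of miR-26a-5p per read of miR-26b-5p. The ratio was 11.5, 10.2 and 8.60 in siIGF2BP2, 6.35, 7.14 and 6.98 in siIGF2BP3, and 8.88 and 8.32 in siC. Both siIGF2BP1 libraries lay above both siC libraries, and all 3 siIGF2BP3 libraries lay below every other library. The siIGF2BP2 libraries ran from within the siC range to within the siIGF2BP1 range.

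The exact 95% intervals of counting error did not overlap between siIGF2BP1 (10.9 to 12.1 and 12.4 to 13.9) and siC (7.79 to 9.60 over both libraries). Nor did those of siIGF2BP3 (5.87 to 7.58 over its libraries) and siC. The intervals of the 2 siIGF2BP1 libraries did not overlap each other either. The same held for siIGF2BP2 replicates 1 (10.6 to 12.4) and 3 (7.97 to 9.29). Libraries of 1 group thus also differed by more than counting error, so these gaps alone do not separate groups. In log2 terms the ratio differed by 0.51 in siIGF2BP1 vs siC, a 1.43-fold difference, by 0.22 in siIGF2BP2 vs siC, by -0.33 in siIGF2BP3 vs siC and by 0.55 in siIGF2BP2 vs siIGF2BP3, a 1.47-fold difference. The two-sided exact permutation p-values were 0.333, 0.4, 0.2 and 0.1 in that order. The smallest values these designs allow are 0.333 for 2 against 2 libraries, 0.2 for 3 against 2 and 0.1 for 3 against 3, so that none could pass 0.05. Adjusted over the 8 comparisons of ratios, the same exact permutation tests gave 0.444, 0.457, 0.32 and 0.32. Group means of the ratio were 12.3 ± 1.20 in siIGF2BP1 (SD, n = 2), 10.1 ± 1.44 in siIGF2BP2 (SD, n = 3), 6.83 ± 0.418 in siIGF2BP3 (SD, n = 3) and 8.60 ± 0.393 in siC (SD, n = 2), where siIGF2BP1 and siIGF2BP2 as neighbours in this order, and siIGF2BP2 and siC, did not separate by library.

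The 3p arm of MIR26B made up 1.11% and 1.21% of the miR-26b reads in siIGF2BP1. It made up 0.693%, 0.515% and 0.668% in siIGF2BP2, 0.974%, 0.780% and 0.929% in siIGF2BP3, and 1.63% and 1.11% in siC. Hence the siIGF2BP2 libraries held the lowest shares and lay below all others, and the siIGF2BP3 libraries lay below all siIGF2BP1 and siC libraries. Over all reads of a group, the share was 13 of 2052 reads in siIGF2BP2, 0.634% with an exact 95% interval of 0.338% to 1.08%, and 23 of 1726 in siC, 1.33% with an interval of 0.847% to 1.99%, and these intervals overlap. The log2 ratio of 3p to 5p differed by -0.22 in siIGF2BP1 vs siC, by -1.13 in siIGF2BP2 vs siC, by -0.60 in siIGF2BP3 vs siC and by -0.53 in siIGF2BP2 vs siIGF2BP3. The two-sided exact permutation p-values were 1, 0.2, 0.2 and 0.1, and 1, 0.32, 0.32 and 0.32 after adjustment over the 8 comparisons. Without siC C2, the difference was 0.066 in siIGF2BP1 vs siC and -0.32 in siIGF2BP3 vs siC, and without siC C3 it was -0.50 and -0.89.

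**Figure D3:**
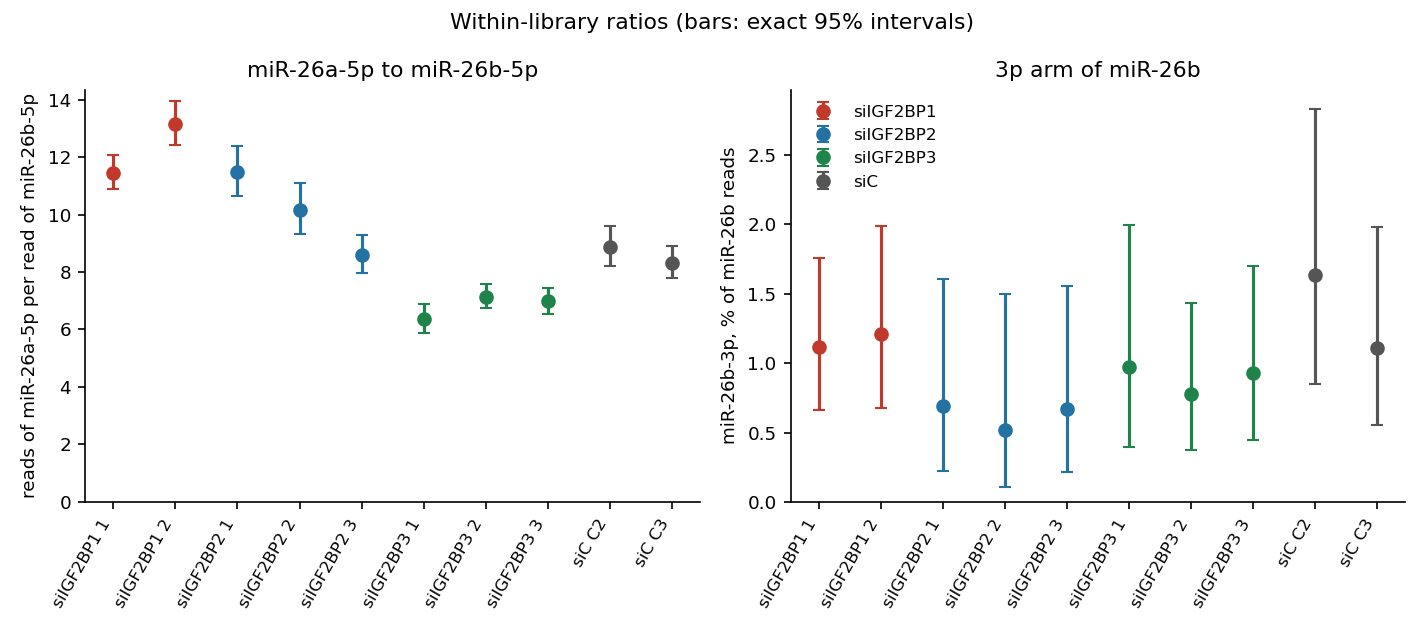
Left, reads of miR-26a-5p per read of miR-26b-5p (y axis, from 0), and right, miR-26b-3p as % of the miR-26b reads (y axis, from 0), in each library (x axes, coloured by group), with exact 95% intervals as bars. On the left the siIGF2BP1 libraries, at 11.5 and 13.1, lie above the siC libraries, and the siIGF2BP3 libraries, at 6.35 to 7.14, lie below all others. On the right the intervals of all groups overlap.

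The fold changes were set beside those of other abundant miRNAs. The 313 miRNAs with a mean normalised read count of at least 10 had a median log2 fold change of 0.16 in siIGF2BP1 vs siC, 0.04 in siIGF2BP2 vs siC, 0.08 in siIGF2BP3 vs siC and -0.04 in siIGF2BP2 vs siIGF2BP3. Relative to that median, miR-26a-5p stood at 0.27, 0.04, -0.25 and 0.29 in the same order, miR-26b-5p at -0.24, -0.18, 0.08 and -0.27, and miR-26b-3p at -0.44, -1.20, -0.49 and -0.71. Rescaling by median of ratios moved the median of siIGF2BP1 vs siC to -0.07 and the log2 fold change of miR-26a-5p to 0.20. Rescaling by upper quartile moved the medians to 0.44 in siIGF2BP2 vs siC and 0.46 in siIGF2BP3 vs siC, and with them the sign of miR-26a-5p in siIGF2BP3 vs siC (0.21) and of miR-26b-5p in siIGF2BP2 vs siC (0.26). Over all 889 miRNAs, median of ratios gave 13 higher and 15 lower calls in siIGF2BP1 vs siC, beside 19 and 3 as deposited, library totals gave 17 and 7, and upper quartile 10 and 9. Upper quartile gave 79 higher and 66 lower in siIGF2BP2 vs siC, beside 11 and 69, and 91 and 69 in siIGF2BP3 vs siC, beside 17 and 77. Relative to the median, each member kept its sign in all 4 comparisons under all 5 scalings, which follows largely from construction, since a factor per library shifts all abundant miRNAs alike.

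**Figure D4:**
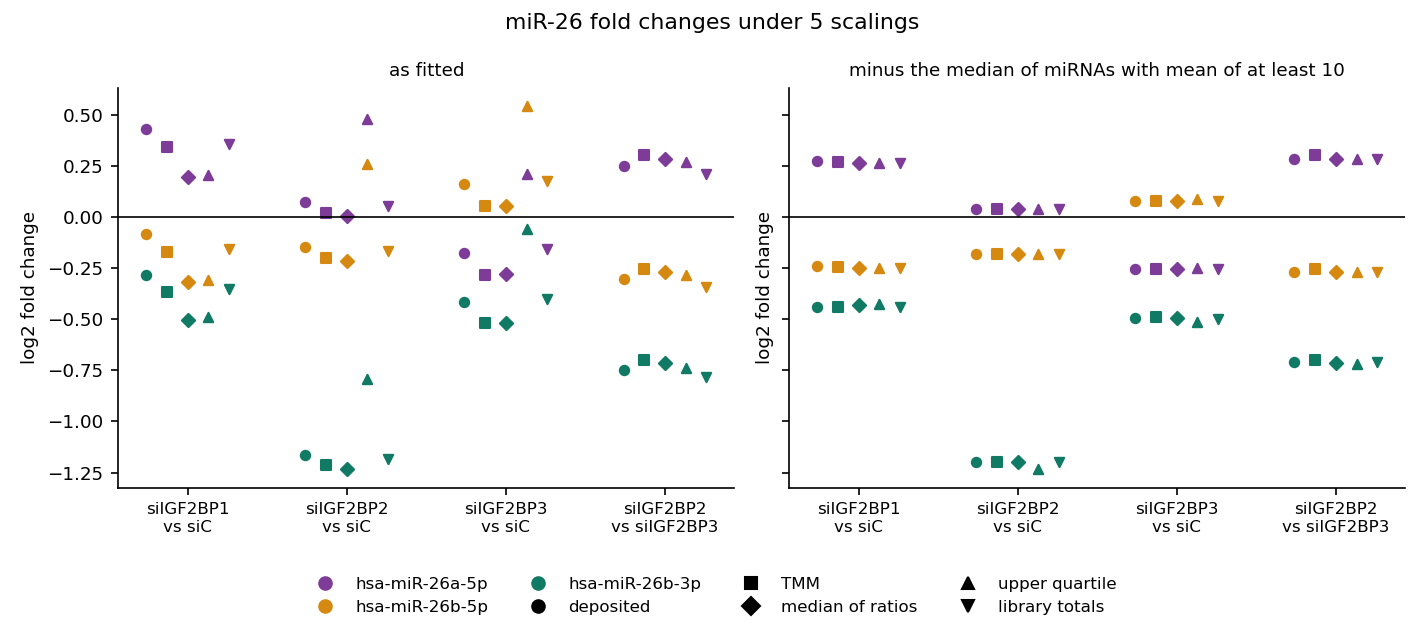
Log2 fold changes (y axes) of the 3 members in the 4 comparisons (x axes) under the deposited scaling and 4 others (symbols). Left, as fitted, where miR-26a-5p in siIGF2BP1 vs siC runs from 0.20 to 0.43; right, minus the median of the 313 miRNAs with a mean of at least 10, where it stays at 0.27 under each of the 5 scalings.

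The 2 miR-26a hairpins give the same guide, so its reads cannot be assigned to one of them, while their passenger arms differ in sequence. The first row of miR-26a-5p held 45239 reads and the second 45267, a share of 49.98% for the first over all libraries (exact 95% interval 49.7% to 50.3%), and 48.8% to 50.9% in single libraries. The sources used here do not say how reads with several genomic placements were distributed. The rows were therefore summed. The passenger miR-26a-2-3p had 123 reads and miR-26a-1-3p had 32, so that MIR26A2 gave 79.4% of the reads of these passenger arms (exact 95% interval 72.1% to 85.4%). The share was 86.7% and 54.2% in siIGF2BP1, 80.0%, 90.9% and 81.8% in siIGF2BP2, 92.3%, 70.0% and 73.3% in siIGF2BP3, and 86.7% and 90.9% in siC. It was lowest in siIGF2BP1 replicate 2, with 11 reads of miR-26a-1-3p and 13 of miR-26a-2-3p.

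**Figure D5:**
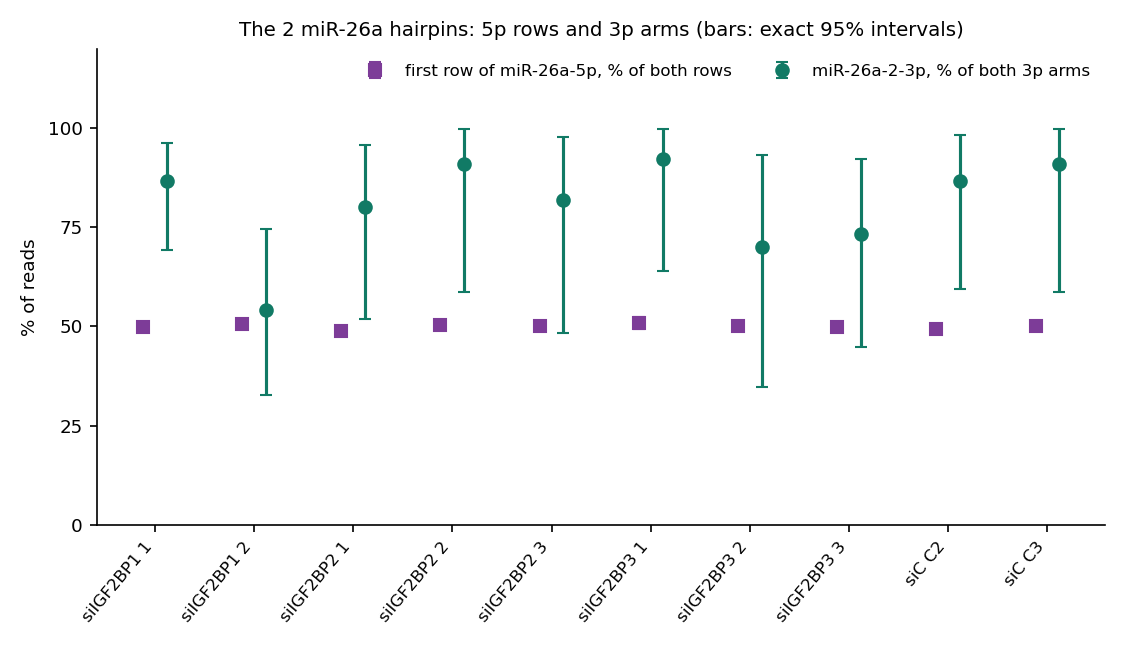
Share of reads (y axis, in %, from 0) in each library (x axis) of the first deposited row of miR-26a-5p among both rows (squares) and of miR-26a-2-3p among both passenger arms of miR-26a (circles), with exact 95% intervals as bars. The squares lie between 48.8% and 50.9% and the circles between 54.2% and 92.3%.

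Both passenger arms of miR-26a passed the filter, and limma called 0 of the 4 relatives (2 of them tested) in each of the 4 comparisons, with 0 of the 2 at an unadjusted p under 0.05. edgeR, which tested miR-26a-2-3p alone of them, and DESeq2 also called 0. miR-26a-1-3p had 3.21 and 9.70 in siIGF2BP1, 4.24, 1.91 and 3.45 in siIGF2BP2, 1.996, 3.55 and 4.76 in siIGF2BP3, and 3.30 and 1.33 in siC, each from 1 to 11 reads. miR-26a-2-3p had 20.9 and 11.5 in siIGF2BP1, 17.0, 19.1 and 15.5 in siIGF2BP2, 23.9, 8.28 and 13.1 in siIGF2BP3, and 21.4 and 13.3 in siC. All groups of both arms overlap those of siC. Against their guide, the passenger arms made up 0.110% to 0.287% of the miR-26a reads of a library, and 0.171% over all libraries. By library, miR-26b-3p made up 0.515% to 1.63% of the miR-26b reads.

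Likeness of profile was measured as the root mean square difference between log2 profiles over the 10 libraries, each centred on its own mean, among miRNAs with a mean of at least 100. The profiles most like that of miR-26a-5p were those of miR-151a-5p (0.093), miR-125a-5p (0.10) and miR-10a-5p (0.11), with 148 others compared and a median difference of 0.32. Means of miR-151a-5p were 1187 in siIGF2BP1, 973 in siIGF2BP2, 863 in siIGF2BP3 and 859 in siC. miR-26b-5p, with the same seed, ranked 79 in likeness to miR-26a-5p, at 0.33. The profiles most like that of miR-26b-5p were those of let-7f-5p (0.11), miR-130b-3p (0.13) and miR-548k (0.13). For miR-26b-3p, whose profile carries the counting error of few reads, they were miR-98-5p (0.35), miR-744-5p (0.35) and miR-15a-5p (0.35).

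Lists of miRNAs that share a known regulator or target with the family were described by their calls. Of 21 MYC-repressed miRNAs, 2 of which are members, all were tested. In siIGF2BP1 vs siC, 1 was higher and 0 lower, namely miR-22-3p, at 36439 ± 3713 in siIGF2BP1 and 25952 ± 2851 in siC (SD, n = 2 each; log2 fold change 0.49, limma adjusted p = 0.0322). Over all 889 miRNAs, 19 were higher and 3 lower (2.47% called). The list's median log2 fold change was 0.12, beside 0.10 over all 889. In siIGF2BP2 vs siC the inflammation-induced miR-146a-5p was higher (log2 fold change 1.22, limma adjusted p = 2.41e-05) and miR-23b-3p lower (-1.001, adjusted p = 0.0227), at a list median of -0.03 beside -0.03. Over all 889, 11 were higher and 69 lower (9.00% called). In siIGF2BP3 vs siC, 4 were lower and 0 higher: miR-23b-3p (-1.46, limma adjusted p = 0.00128), miR-146a-5p (-0.99, adjusted p = 0.000153), miR-30c-5p (-0.47, adjusted p = 0.00649), named after its values were seen, and the p53-induced miR-34a-5p, which had 0 reads in siIGF2BP3 and 10 in siC, 5.30-fold lower with the siIGF2BP3 libraries together set at the floor of 3 reads. That bound takes the 10 siC reads as exact, without their counting error. In siIGF2BP2, of the same block, miR-34a-5p had 1.41, 3.82 and 0. Over all 889, 17 were higher and 77 lower (10.6% called). The list median was -0.01 beside 0 over all tested, also with miR-34a-5p at its bound. In siIGF2BP2 vs siIGF2BP3, miR-146a-5p (2.21, limma adjusted p = 1.05e-07) and miR-30c-5p (0.46, adjusted p = 0.0167) were higher and 0 were lower, at a median of -0.09 beside 0, where 15 of all 889 were higher and 13 lower (3.15% called). Of 5 other miRNAs reported to repress EZH2, of which let-7a-5p also stands in the MYC list and miR-214-3p among the mesenchymal markers, 4 were tested. miR-98-5p was lower in siIGF2BP2 than in siC (-0.35, limma adjusted p = 0.0382) and miR-138-5p higher in siIGF2BP3 than in siC (0.50, adjusted p = 0.0277), so that 1 of 4 was called in each, beside 9.00% and 10.6% of all 889. In the other comparisons 0 were called. Medians of this list ran from -0.17 to 0.19.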

How the data were processed

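Small RNA of ES-2 cells was measured in 10 libraries. Per the labels' protocols, 500 ng of TRIZOL-extracted total RNA went into an Illumina TruSeq small RNA kit, with libraries of 140 to 165 bp and 51 bp reads. Per the submitters' processing notes, the tools included edgeR 3.12, featureCounts 1.4.6, Bowtie2 2.2.4 and cutadapt 1.6, and the build was hg19. The sources used here name no settings, miRNA release or scaling method. The deposited library columns are a signal, counts that the authors multiplied by 1 factor per library. All values (100%) were whole multiples of 1 read within 0.01 reads, so that reads were recovered. The authors' deposited table also holds log2 fold changes, knockdown over siC, and p-values with false discovery rates.

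Rows of 1 name were summed. Because the values are normalised, limma 3.58.1 (R 4.3.3) with an intensity trend was used on log2(value + 1), with all 4 groups fitted jointly. It covered the 889 miRNAs that reached 1 in 2 or more libraries, and adjusted p-values (Benjamini-Hochberg) were held to 0.05. For low miRNAs the added 1 shrinks the fold change. The count tests, edgeR 4.0.16 (335 miRNAs) and DESeq2 1.42.0, ran on the recovered reads. Ratios were compared by two-sided exact permutation tests (scipy 1.17.1). Intervals of shares are 95% Clopper-Pearson (exact). They and the floor of 3 reads cover counting error only. The control columns, siC C2 and siC C3, match the control group but neither of its single samples. Columns of other samples numbered 0. The labels do not name separate cultures, so a p-value reflects library-to-library spread, possibly technical. Replicate pairs were not duplicates (chi-square per degree of freedom 6.80 to 38.7). In bulk RNA, fewer cells with a miRNA and less of it per cell cannot be told apart.

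Named miRNAs are the members, their relatives, called miRNAs of the lists (at most 3 per comparison, by size of fold change) and the 3 profiles most like each member. The members and lists were chosen with earlier results of these data known. A planned permutation test of the members' summed share was left out, since the members were chosen together. On simulated counts with 200 of 889 miRNAs changed, the limma fit of siIGF2BP1 vs siC found, among miRNAs with a mean of 10 or more, 92.3% of the 4-fold changes (39) and 41.4% of the 2-fold changes (29). For 2-fold changes it was 31.0% in siIGF2BP2 vs siC, 20.7% in siIGF2BP3 vs siC and 31.0% in siIGF2BP2 vs siIGF2BP3. Every miRNA was simulated with the same dispersion, so these shares do not give the power for a single member. Alternatives were other pseudocounts, scalings, filters, tools and fits, and leaving out each library.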

Additional observations from a re-analysis of the deposited data

How the results depend on the processing

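Of 279 recomputed values of 24 results, 261 kept their direction and their side of the threshold, or stayed within 1 SD. This count was largely set in advance and does not measure robustness. No member passed in the main limma fit, so none could lose a call. For the ratios only the sign was compared, since their permutation p-values could not pass the threshold. For miR-26a-5p in siIGF2BP1 vs siC (log2 fold change 0.43), a filter on a mean of at least 10 passed limma's test (0.43, adjusted p = 0.0233), and over 16 alternatives the log2 fold change ran from 0.17 (edgeR) to 0.45 and the adjusted p from 0.0233 to 0.706. In siIGF2BP2 vs siC, miR-26a-5p passed under upper-quartile rescaling (0.48, 1 of 17 alternatives). In siIGF2BP3 vs siC it passed in DESeq2 (-0.28) and reversed under upper-quartile rescaling (0.21). In siIGF2BP2 vs siIGF2BP3 it passed in edgeR (0.29) and DESeq2 (0.28), 2 of 19 alternatives. miR-26b-5p reversed under upper-quartile rescaling in siIGF2BP2 vs siC (0.26), passed under it in siIGF2BP3 vs siC (0.54), and reversed in siIGF2BP1 vs siC without siIGF2BP1 replicate 2 (0.041). For miR-26b-3p in siIGF2BP2 vs siC, 5 of 17 alternatives passed: a pseudocount of 0.1 (-1.26), median of ratios (-1.23), the mean filter and the first genomic copy alone (-1.16 each) and edgeR (-1.30). The first genomic copy alone left the values of miR-26b-3p unchanged and altered only those of other miRNAs. The mean filter, here and for miR-26a-5p in siIGF2BP1 vs siC, left the member's values unchanged and tested 313 miRNAs in place of 889. The cause of these shifts was not tested.

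Leaving out 1 library gave 0.40 to 0.45 for miR-26a-5p in siIGF2BP1 vs siC, -0.21 to 0.041 for miR-26b-5p there, -1.37 to -0.96 for miR-26b-3p in siIGF2BP2 vs siC and -0.62 to -0.21 in siIGF2BP3 vs siC. The log2 ratio of miR-26b-3p to miR-26b-5p in siIGF2BP1 vs siC ran from -0.50 to 0.066, the last without siC C2, and from -0.89 to -0.32 in siIGF2BP3 vs siC, and that of miR-26a-5p to miR-26b-5p from 0.41 to 0.61 in siIGF2BP1 vs siC and from 0.46 to 0.66 in siIGF2BP2 vs siIGF2BP3. The log2 difference of the members' share in siIGF2BP1 vs siC was 0.24 when the 10 most abundant miRNAs were left out of the total, and in siIGF2BP2 vs siC it ran from 0.0050 (without siC C3) to 0.057 (without siC C2).

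With the replicate number as a block in siIGF2BP2 vs siIGF2BP3, the adjusted p was 0.456 for miR-26a-5p and miR-26b-5p and 0.498 for miR-26b-3p (log2 fold changes 0.25, -0.30 and -0.75), and 5 of 728 miRNAs were called against 28 of 889 with all 4 groups in the fit and 37 of 728 in the same 2 groups without the block. Same-numbered libraries did not deviate together (correlations -0.12, -0.16 and -0.04). The labels do not say whether they share more than a number, and so few correlations cannot settle it. No paired analysis was possible against siC because its columns carry no matching number. Depth limits miR-26b-3p most, with 3 to 18 reads in a library. The number of calls over all miRNAs moved by over 1.5 times in siIGF2BP1 vs siC, with 22 calls beside 52 with the mean filter, 42 in edgeR, 35 in DESeq2 and 10 with the 2 groups alone, and without 1 library 3 (siC C2), 8 (siIGF2BP1 replicate 1) and 2 (siIGF2BP1 replicate 2). In siIGF2BP2 vs siC it was 80 beside 145 under upper quartile, 52 in edgeR, 49 with the mean filter, and 53 without siIGF2BP2 replicate 2 or 3. In siIGF2BP3 vs siC it was 94 beside 160 under upper quartile. In siIGF2BP2 vs siIGF2BP3, 28 calls stood beside 14 to 16 without siIGF2BP2 replicate 1, 2 or 3 or siIGF2BP3 replicate 2.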
